A study of Mus musculus with 4 samples.

Results

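Genes named Ccdc (coiled-coil domain containing) were compared between embryonic mouse retinas labelled as having or lacking Foxn3. The family was taken as every symbol in the deposited table that starts with Ccdc and a digit, leaving out 7 names of well-known motile cilia genes (Ccdc39, Ccdc40, Ccdc65, Ccdc103, Ccdc114, Ccdc151 and Ccdc164). This gave 101 of 18471 measured genes, of which 100 passed a filter on low counts; Ccdc192, with 5 to 14 counts per library, did not. One entry, Ccdc142os, is by its name an opposite-strand RNA of Ccdc142 and was kept because the rule admits it. Retinal RNA came from individual embryos at embryonic day 19, 2 labelled wild-type and 2 labelled Foxn3KO, with the genotype of the latter given as Foxn3-/-. Foxn3 encodes a transcription factor of the forkhead class, and the labels give its exon 3 as deleted in the knockout. That strain is named C57BL/6NJ-Foxn3em1(IMPC)Bay/Mmnc. No further treatment is named for either group, and the series title places the comparison in the control of primary cilia.

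The name Ccdc is a placeholder given to genes whose protein is predicted to form a coiled coil, a rope of wound helices that often joins proteins together. Members share no common ancestor or task. Some build the axoneme, the microtubule core of cilia and sperm flagella, or the centriole that anchors it; others act in the nucleus, mitochondria or endosomes. Retinal cells carry a primary cilium, which photoreceptors later enlarge into the outer segment, and the genes of motile cilia are known to be switched on by the factors Foxj1 and Rfx.

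Total counts ranged from 22543531 to 29360129 per library. Foxn3 itself, counted over the whole gene and so blind to exon 3, was higher in the libraries labelled Foxn3KO, at 144 ± 0.108 CPM against 98.7 ± 1.55 CPM (SD, n = 2 each), so groups are called by their labels. The libraries also differed in ways outside the Ccdc genes. Wild-type replicate 1 alone had high Xist (83073 counts against 9 to 19). Of 8 lens markers 7 rose, with summed levels of 4.64 and 71.1 CPM under the wild-type label and 244 CPM in each labelled Foxn3KO. Of 19 retinal markers 4 rose and 3 fell, with sums of 4765 to 5023 CPM. Rises and falls numbered 0 and 3 of 8 for pigment epithelium, 2 (Aqp1 and Folr1) and 2 (Ttr and Clic6) of 7 for choroid plexus, 0 and 0 of 8 for microglia and 1 and 0 of 7 for vessels and mesenchyme. Summed choroid plexus markers stayed between 43.9 and 52.4 CPM, and pigment epithelium markers went from 87.9 and 116 CPM to 73.0 and 73.9 CPM. The part of these differences in the results was not tested. Airway markers were not analysed here. In whole tissue, fewer cells of a type and less RNA per cell cannot be told apart.

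The Ccdc genes split into a minority that rose, in part very strongly, and a majority that stayed close to their wild-type level. With edgeR's quasi-likelihood test and Benjamini-Hochberg adjustment over all 17300 tested genes, 26 of 100 were higher in the libraries labelled Foxn3KO, where 12.3% of all tested genes were. Of these, 14 rose by at least 2-fold, against a background of 2.86%, and 6 rose by at least 4-fold, against 1.2%. Another 8 were lower, against 9.66% of all tested genes. By separation alone, with no test, both libraries labelled Foxn3KO lay above both labelled wild-type in 45 of the 100 genes (29.9% of all tested genes) and below them in 24 (30.5%). The median log2 fold change of the 100 genes was 0.05, beside -0.00470 for all tested genes.

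A missed threshold does not show that a gene was unchanged, so the 95% interval of each fold change was used to separate the rest. For 51 genes with no call the whole interval lay within 1.5-fold on either side, a share like that of all tested genes (52.3%). The other 15 stayed undecided, against 25.8% of all tested genes. Their highest count in any library ranged from 12 (Ccdc170) to 216 (Ccdc159).

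**Figure D1:**
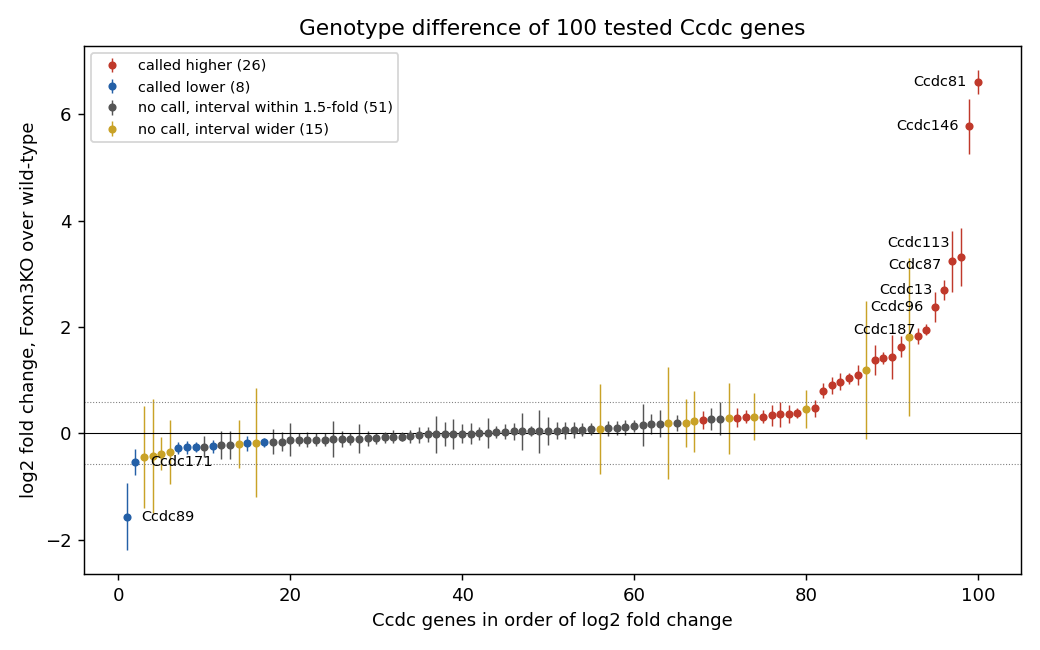
Each point is 1 of the 100 tested Ccdc genes, in order of its log2 fold change (vertical axis, libraries labelled Foxn3KO over those labelled wild-type), with its 95% interval from the edgeR fit. Dotted lines mark 1.5-fold. The 26 genes called higher form a tail that reaches 6.61 for Ccdc81, while 51 genes lie with their whole interval between the dotted lines.

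In summed level, the 14 genes with the larger rises took 232 and 229 CPM under the wild-type label and 789 and 799 CPM under the Foxn3KO label. Over the same libraries the 51 genes held within 1.5-fold summed to 2267 and 2264 CPM and to 2242 and 2225 CPM. Both sets were picked by their fold changes in these libraries, so the rise of the first sum and the steadiness of the second follow from that choice. The summed level of the 101 genes went from 3668 and 3634 CPM to 4240 and 4213 CPM.

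Promoters were examined for what the rising genes share beyond their name. RFX factors bind a paired element, the X-box, with an arm that reads GTTGCC, and forkhead factors bind GTAAACA; Foxn proteins can also bind the forkhead-like site GACGC. RefSeq promoters (GRCm38.p6, 250 bases before and 50 after the start) were matched by symbol for 78 of the 101 genes, and exact matches were sought on both strands. The RFX arm was present in 8 of 12 genes that rose by at least 2-fold (66.7%), in 3 of 9 that rose less (33.3%), in 8 of 41 held within 1.5-fold (19.5%) and in 1 of 6 that fell. It was in 14.1% of all 27025 genes with a promoter listed, in 14.9% of tested genes, and in the motile cilia reference list 11 of 19 (57.9%). These shares are descriptions without a test, and a gene with several annotated starts, such as Ccdc91, has more chances of a match.

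The RFX arm of the larger risers sat close to the start of transcription. Its first base was 6 bases before the start in Ccdc113, 33 in Ccdc13, 38 in Ccdc160 and Ccdc60 and 42 in Ccdc184, and it opened at transcript base 2 in Ccdc96 and 11 in Ccdc30 and Ccdc157. In genes held within 1.5-fold it lay from 238 bases before the start (Ccdc47) to transcript base 40 (Ccdc127), at 14 and 6 bases before it in Ccdc175 and at 35 in Ccdc85b. Among genes that rose less, it lay 242 bases before the start in Ccdc8, 127 in Ccdc124 and at transcript base 27 in Ccdc181. Its position over all tested promoters was not examined. The 5 upstream sites of the larger risers are printed because they carry the RFX arm. They read 5′ to 3′ on the transcript's strand, with the RFX matches alone in capitals. Ccdc113 lies on chromosome 8, plus strand (chr8:95534079-95534099), Ccdc13 on chromosome 9, minus strand (chr9:121839466-121839509), Ccdc160 on the X chromosome, plus strand (chrX:52791147-52791190), Ccdc60 on chromosome 5, minus strand (chr5:116288995-116289038), and Ccdc184 on chromosome 15, plus strand (chr15:98167749-98167792).
Ccdc113: gcgttcagttgtctaGGCAAC
Ccdc13: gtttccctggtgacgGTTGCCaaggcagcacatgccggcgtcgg
Ccdc160: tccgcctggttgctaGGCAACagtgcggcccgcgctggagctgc
Ccdc60: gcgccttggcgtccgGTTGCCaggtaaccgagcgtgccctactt
Ccdc184: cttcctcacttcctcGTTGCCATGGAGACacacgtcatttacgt

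In Ccdc113 and Ccdc160 the capitals are the RFX arm read on the other strand, GGCAAC. The window of Ccdc184 also matched the full X-box, which overlaps its RFX arm; no other Ccdc promoter in the table held it, and 0.483% of tested genes did. The forkhead-like site was common everywhere, in 8 of 12 larger risers, 25 of 41 genes held within 1.5-fold (61.0%) and 49.4% of tested genes. The forkhead site GTAAACA was found in 1 of the 12 larger risers, Ccdc30, in 1 of 41 genes held within 1.5-fold, in 2 of 6 that fell and in 3.06% of tested genes.

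**Figure D2:**
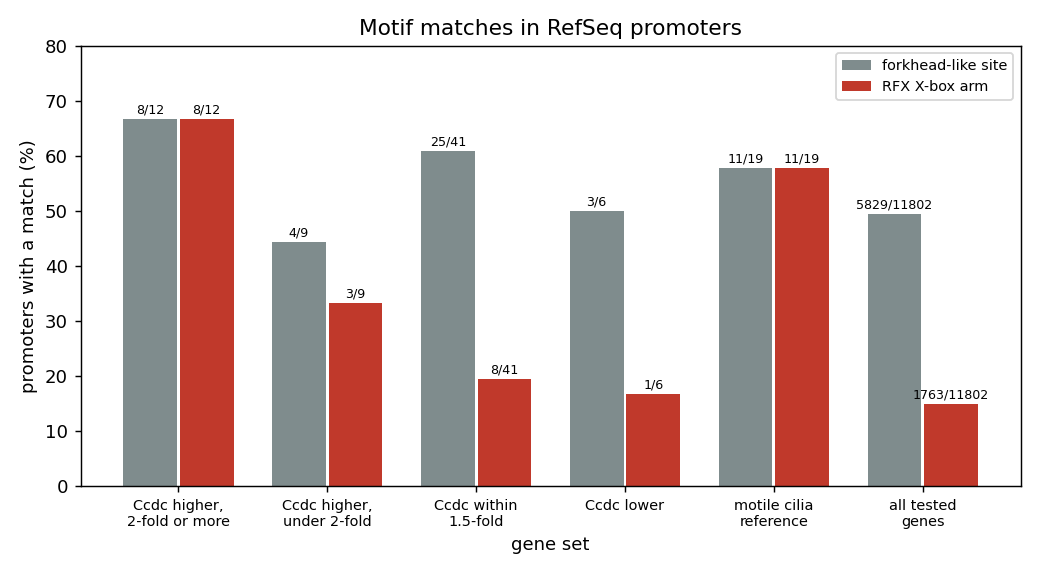
Bars give the percentage of genes whose RefSeq promoter held an exact match to the forkhead-like site (grey) or the RFX X-box arm (red), with the number of genes above each bar. The RFX arm was present in 66.7% of Ccdc genes that rose by at least 2-fold and in 14.9% of all tested genes.

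The list of axonemal and sperm flagellum genes held 6 of the 14 larger rises. Of its 11 tested members 7 rose, 6 of them by at least 2-fold, and 0 fell, where 12.3%, 2.86% and 9.66% of all tested genes did. The list was chosen with earlier results of these data known. Ccdc146, Ccdc170 and Ccdc188 passed the low-count filter only through the libraries labelled Foxn3KO. For both reasons these counts are given as a description only. Ccdc81 was placed in this list, although its protein has also been found at the centrosome, and had 16 and 25 counts under the wild-type label and 2256 and 1728 under the Foxn3KO label. Its level went from 0.783 ± 0.194 to 77.3 ± 0.223 CPM (SD, n = 2 each), which is 97.5-fold (95% interval 83.3 to 114, edgeR adjusted p = 1.22e-17). That interval is narrow for so few counts under the wild-type label. The log2 fold change of 6.61 (interval 6.38 to 6.83) became 6.39 without wild-type replicate 1 and 6.89 without replicate 2 of that label. Per gene length, in the authors' FPKM, Ccdc81 moved from rank 91 to rank 5 of the 100 tested Ccdc genes, from 0.279 to 27.6 FPKM.

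Ccdc146, a microtubule-binding protein needed for the sperm flagellum, had 8 and 4 counts under the wild-type label and 356 and 305 under the Foxn3KO label. The groups were far apart, at 0.235 ± 0.124 and 12.9 ± 0.985 CPM (SD, n = 2 each). The log2 fold change was 5.77 (SE 0.246, edgeR adjusted p = 4.69e-12), and it ranged from 5.29 to 6.40 when either wild-type library was left out. Gsap and Fgl2, which overlap Ccdc146 on the opposite strand in the annotation, both fell, with log2 fold changes of -0.49 and -0.84 (adjusted p of 0.00140 and 0.0114 in edgeR). The libraries were made with a kit that marks strand, but whether counting used it is not given in the sources used here, so reads of such overlapping genes may not have been kept apart.

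Ccdc113 and Ccdc96 encode partners that bind each other beside the nexin-dynein regulatory complex, a link between axonemal microtubules. Ccdc113 had 27 and 12 counts under the wild-type label and 217 and 170 under the Foxn3KO label, a log2 fold change of 3.31 (SE 0.257, edgeR adjusted p = 2.25e-08). Leaving out wild-type replicate 1 gave 4.08, and leaving out replicate 2 of that label gave 2.78; the 2 wild-type libraries differed more than 2-fold in this gene. Ccdc96 had 73 and 93 against 506 and 352 counts, a log2 fold change of 2.38 (SE 0.132, edgeR adjusted p = 2.18e-10). Per gene length the partners ended near each other, at 5.82 FPKM for Ccdc113 and 4.60 FPKM for Ccdc96 in the libraries labelled Foxn3KO, from 0.592 and 0.885 FPKM.

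Ccdc187 and Ccdc60, placed in the same list with a less settled role, were already well expressed. Ccdc187 had 1747 and 1764 counts under the wild-type label and 7462 and 5970 under the Foxn3KO label. It rose 3.86-fold (95% interval 3.59 to 4.16, edgeR adjusted p = 4.76e-15). Ccdc60 rose 2.68-fold (2.48 to 2.91, edgeR adjusted p = 1.02e-12), from 39.7 ± 1.39 to 106 ± 2.93 CPM (SD, n = 2 each). Ccdc181, a microtubule-binding protein of motile cilia and sperm flagella, had 777 and 763 against 1526 and 1142 counts and rose 1.74-fold (edgeR adjusted p = 6.91e-08).

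The remaining 4 members of this list were low and undecided. Ccdc188 had 1 and 6 counts under the wild-type label and 12 and 13 under the Foxn3KO label (edgeR adjusted p = 0.0770); limma-voom called it higher (adjusted p = 0.0259). Ccdc170 had 5 in each library under the wild-type label and 12 and 11 under the Foxn3KO label (edgeR adjusted p = 0.187). Ccdc63, a flagellar relative of the dynein docking proteins, had 28 and 10 against 16 and 12 counts (edgeR adjusted p = 0.602), and Ccdc116 had 90 and 73 against 78 and 63 (edgeR adjusted p = 0.568).

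**Figure D3:**
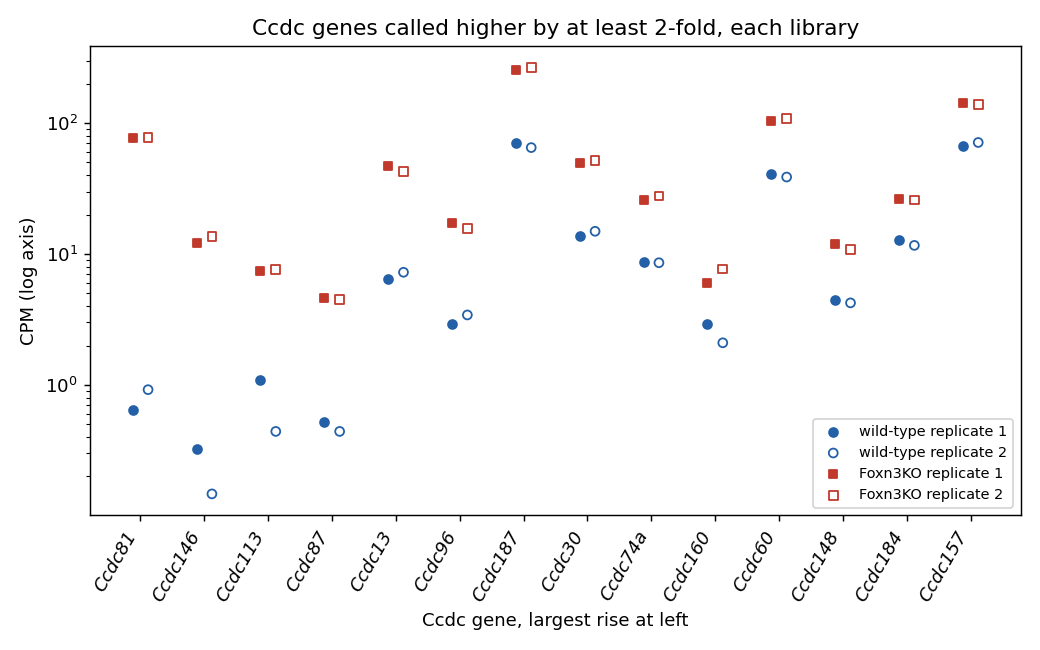
Level of the 14 Ccdc genes called higher by at least 2-fold in each of the 4 libraries, as CPM on a log axis (circles wild-type, squares Foxn3KO; filled replicate 1, open replicate 2). The genes were picked as called higher, and their mean levels run from 0.783 and 77.3 CPM for Ccdc81 at the left to 68.9 and 141 CPM for Ccdc157 at the right; such separation of the groups was seen in 29.9% of all tested genes.

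Among centriole, satellite and ciliary base genes, 4 of 12 tested members rose, 8 were held within 1.5-fold and 0 fell, beside 12.3%, 52.3% and 9.66% of all tested genes, with a median log2 fold change of 0.04. Ccdc13, a centriolar satellite protein needed to build cilia, had 160 and 197 counts under the wild-type label and 1366 and 950 under the Foxn3KO label. Its log2 fold change of 2.70 (SE 0.0894, edgeR adjusted p = 1.20e-13) stood well above those of the other members. Ccdc57, a satellite protein of centriole duplication, rose 1.87-fold from 418 and 452 to 892 and 715 counts (edgeR adjusted p = 7.86e-08). Ccdc92, a centriolar partner of Cep164, rose 1.38-fold (edgeR adjusted p = 0.000158), and Ccdc138 rose 1.29-fold (edgeR adjusted p = 0.00315). Without Foxn3KO replicate 1, Ccdc138 was no longer called (edgeR adjusted p = 0.110).

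The 8 held within 1.5-fold include well-expressed centriolar genes. Ccdc61, a basal body protein of the Vfl3 family, had 33.4 ± 0.133 CPM under the wild-type label and 34.1 ± 0.0223 CPM under the Foxn3KO label (SD, n = 2 each). Its fold was 1.02 with an interval of 0.929 to 1.12. Ccdc66, a ciliary microtubule protein whose loss causes retinal degeneration, had a fold of 0.921 (0.833 to 1.02). The folds of Ccdc14, Ccdc15, Ccdc28b, Ccdc77, Ccdc112 and Ccdc120 lay between 0.861 (Ccdc15) and 1.04 (Ccdc112). Without wild-type replicate 2, Ccdc66 and Ccdc14 had log2 fold changes of -0.20 and -0.27. Without replicate 1 of that label they had -0.04 each.

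Genes without a role in the lists supplied 11 more rises and 4 falls among 41 tested, where 12.3% and 9.66% of all tested genes were called. Ccdc87, a gene of sperm development, had 13 and 12 counts under the wild-type label and 135 and 101 under the Foxn3KO label, a log2 fold change of 3.24 (SE 0.273, edgeR adjusted p = 7.18e-08). Ccdc30 rose 3.54-fold from 341 and 405 to 1450 and 1161 counts (edgeR adjusted p = 1.82e-12). Ccdc74a rose 3.10-fold from 216 and 233 to 754 and 620 counts (edgeR adjusted p = 2.35e-10).

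Ccdc160 is X-linked, so the library with high Xist bears on it. It had 73 and 57 counts under the wild-type label and 175 and 172 under the Foxn3KO label, a log2 fold change of 1.44 (edgeR adjusted p = 3.42e-05), 1.68 with wild-type replicate 1 left out and 1.19 with replicate 2 of that label left out. The other X-linked members, Ccdc22 and Ccdc120, were held within 1.5-fold (folds 1.03 and 1.04). Ccdc148 went from 111 and 115 to 345 and 241 counts (2.60-fold), Ccdc184 from 315 and 316 to 763 and 579 (2.14-fold) and Ccdc157 from 1654 and 1930 to 4162 and 3125 (2.05-fold), which completed the larger rises. Just below the 2-fold line lay Ccdc191, at 1.96-fold (1.76 to 2.19).

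Several of the rising genes start within 1 kb of a neighbour transcribed the other way in the GENCODE M21 annotation, and the neighbour changed less. Beside Ccdc96 (log2 fold change 2.38), Tada2b rose by 0.34, and beside Ccdc87 (3.24), Ccs rose by 0.25 (edgeR adjusted p = 0.000825 and 0.0192). Beside Ccdc157 (1.04), Sf3a1 rose by 0.22 (edgeR adjusted p = 0.00175). Fam185a, which starts beside Ccdc146 (5.77), rose by 0.83 (edgeR adjusted p = 6.05e-06). Pkp4, beside Ccdc148 (1.38), had a log2 fold change of 0.06 (edgeR adjusted p = 0.380), and Zfp664, beside Ccdc92 (0.47), one of -0.01 (edgeR adjusted p = 0.869).

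Called rises in the lists of other compartments were small. Ccdc124, a ribosome-binding factor, went from 59.7 ± 0.969 to 74.0 ± 4.82 CPM (SD, n = 2 each), 1.24-fold (edgeR adjusted p = 0.000711), and Ccdc8, of the 3M ubiquitin ligase complex, also rose 1.24-fold (edgeR adjusted p = 0.000719). Ccdc34, linked to sperm flagella and in none of the lists, rose 1.30-fold from 3269 and 3404 to 4866 and 3770 counts (edgeR adjusted p = 6.57e-06). Ccdc126 (1.27-fold), Ccdc158 (1.28-fold), Ccdc85a (1.22-fold) and Ccdc177 (1.19-fold) passed in edgeR but not in DESeq2.

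In the other role lists the counts are set against 12.3% of all tested genes higher, 9.66% lower and 52.3% held within 1.5-fold. In the nuclear, splicing and ribosome list 1 of 8 rose and 7 were held within 1.5-fold, and in the endosome and Golgi list 1 of 6 fell and 5 were held. In the mitochondrion and endoplasmic reticulum list 1 of 8 rose, 1 fell and 6 were held; among 8 other members with a known role 1 rose, 1 fell, 5 were held and Ccdc69 was undecided. Ccdc47, a chaperone of membrane protein insertion in the endoplasmic reticulum, had 3591 and 3728 counts under the wild-type label and 3948 and 2892 under the Foxn3KO label. Its fold was 0.939 (0.875 to 1.01), after scaling for library size. Ccdc115, a V-ATPase assembly factor, Ccdc90b, a mitochondrial protein, and Ccdc117 had folds of 0.961, 0.955 and 1.06.

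The Ccdc85 and Ccdc88 families are sets of paralogs, and 2 of their 6 members were called, where 21.9% of all tested genes were called in either direction. Ccdc85c, whose loss causes hydrocephalus in mice, was the most abundant Ccdc gene per length in both groups, at 118 and 113 FPKM, with a fold of 0.958 (0.902 to 1.02). Its relative Ccdc85b had a fold of 0.930 (0.833 to 1.04), and Ccdc85a rose 1.22-fold from 2.86 FPKM under the wild-type label. Ccdc88a (Girdin), an actin-binding signalling protein, had 3481 and 3741 against 4096 and 3236 counts, a fold of 1.03 (0.960 to 1.10). Ccdc88b had a fold of 0.992 (0.850 to 1.16). Ccdc88c (Daple), which binds Dishevelled in Wnt signalling, was 1.21-fold lower (edgeR adjusted p = 0.00152).

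**Figure D4:**
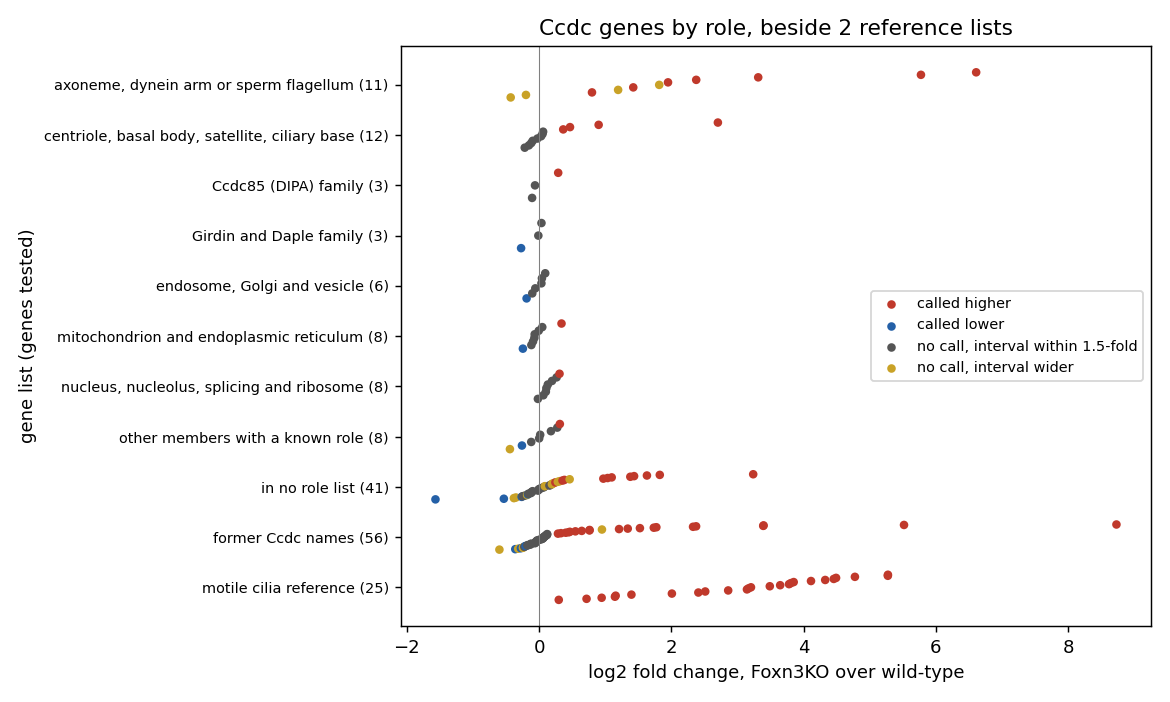
Log2 fold change (horizontal axis, libraries labelled Foxn3KO over those labelled wild-type) of each tested gene by list, with the number of genes in brackets, coloured by call. Former Ccdc names are the 56 genes found by RefSeq synonym or GENCODE M21 symbol. Values run from -0.43 (Ccdc63) to 6.61 (Ccdc81) in the axoneme list and from 0.30 to 5.27 in the motile cilia reference.

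The 8 falls, near the background share of 9.66%, were under 1.5-fold except in Ccdc89. Ccdc89, known to bind the Notch target Hey1, had 52 and 65 counts under the wild-type label and 23 and 16 under the Foxn3KO label. It was 2.96-fold lower (log2 fold change -1.57, SE 0.300, edgeR adjusted p = 0.000946), the only Ccdc gene lower by at least 2-fold, where 0.428% of all tested genes were. Ccdc171 was 1.45-fold lower, from 374 and 367 to 263 and 242 counts (edgeR adjusted p = 0.00268). Ccdc50, a ubiquitin-binding regulator of growth factor signalling, was 1.20-fold lower, from 212 ± 3.78 to 177 ± 1.84 CPM (SD, n = 2 each, edgeR adjusted p = 0.000246). Ccdc82 (1.20-fold), Ccdc167 (1.18-fold), Ccdc136 (1.12-fold) and Ccdc93 (1.14-fold) completed the 8. Without Foxn3KO replicate 2 only 3 of the 8 were called, and Ccdc93 (edgeR adjusted p = 0.0482) was lost in DESeq2 too.

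The counts of calls moved little among the larger rises and more among the small changes. DESeq2 called 22 Ccdc genes higher and 7 lower, where it called 10.1% and 5.92% of all genes it gave an adjusted p. At an adjusted p under 0.1 edgeR called 31 higher and 10 lower, against 15.3% and 13.3% of all tested genes. With a replicate block 28 were higher and 8 lower, against 13.5% and 10.9%. With a library left out, the higher calls went from 22 without Foxn3KO replicate 1 (background 8.39%) to 29 without wild-type replicate 2 (15.6%). The lower calls went from 3 without Foxn3KO replicate 2 (4.69%) to 12 without wild-type replicate 2 (13.1%). The 14 larger rises became 13 with at least 10 counts required in every library (2.37%) and 15 without wild-type replicate 2 (3.08%). Whatever their p, 16 genes had a log2 fold change of at least 1, against 3.48% of tested genes.

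The larger rises were also counted by starting level, as a description. When the 100 tested genes were divided into 3 by wild-type FPKM, the lowest group (0.0360 to 2.00 FPKM) held 9 of the 14 larger rises and 14 of the 15 undecided genes. The middle group held 3 of the larger rises, and the highest, from 7.21 to 118 FPKM, held 2. Genes called higher were spread more evenly, with 10, 9 and 7 in the 3 groups. The starting level is also the denominator of the fold, low genes can show a large fold from few counts, and Ccdc146, Ccdc170 and Ccdc188 were in the lowest group only because their levels under the Foxn3KO label passed the filter.

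**Figure D5:**
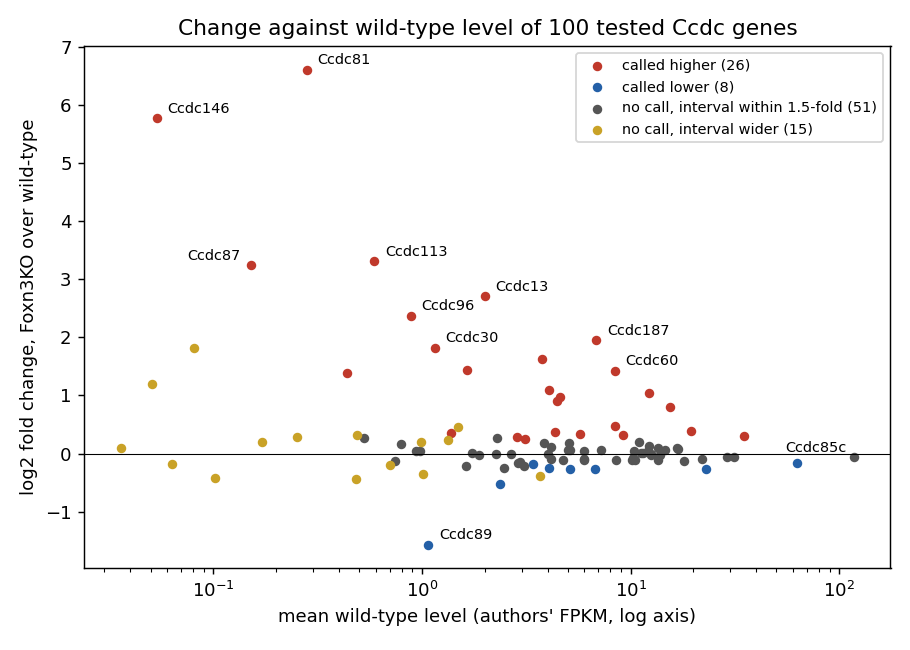
Log2 fold change of the 100 tested Ccdc genes (vertical axis, libraries labelled Foxn3KO over those labelled wild-type) against their mean level in the 2 wild-type libraries (authors' FPKM, log axis), coloured by call. Ccdc146 and Ccdc81 rose from 0.0535 and 0.279 FPKM, whereas Ccdc85c at 118 FPKM stayed near 0.

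The Ccdc genes were set beside genes with a named ciliary task. In a reference list of motile cilia genes all 25 that were measured rose, 22 of them by at least 2-fold, with log2 fold changes of 0.30 to 5.27; the list was chosen with this rise known. The 4 excluded genes measured under a Ccdc name (Ccdc39, Ccdc40, Ccdc65 and Ccdc103) rose by 2.03 to 3.11. Genes that once had a Ccdc name and have since been renamed were examined too. By RefSeq synonyms, 49 such genes were tested: 16 rose, 8 of them by at least 2-fold, 2 fell and 26 were held within 1.5-fold, where 12.3%, 2.86%, 9.66% and 52.3% of all tested genes did. Cfap65 (formerly Ccdc108), Drc1 (formerly Ccdc164, one of the names left out above) and Cfap45 (formerly Ccdc19) rose most among the 49, by 8.73, 5.52 and 3.39 on the log2 scale. Cfap65 had only 10 and 3 counts under the wild-type label, against 3107 and 2459 under the Foxn3KO label. Adding older GENCODE M21 symbols, a choice made after seeing the data, gave 56 genes with 20 rises and 3 falls. Among the 56, Cfap65, Deup1 and Cfap58 passed the low-count filter only through the libraries labelled Foxn3KO, so these counts are a description.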

How the data were processed

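Reads per gene were deposited by the authors as raw counts in 1 table, with 1 column per library matched to its sample label. The same table gives FPKM values computed by the authors, used here only to compare levels between genes. The mean signal, log2 fold changes and p-values that the authors deposited were not used. DESeq2 and the mm39 build are named, without a role, per the submitters' processing notes; the aligner, annotation, use of strand and duplicate removal are not given in the sources used here.

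One repeated gene identifier was dropped. Genes were filtered with filterByExpr, scaled with TMM and fitted in edgeR 4.0.16 under R 4.3.3 (quasi-likelihood test, current form, genotype as the only term, two-sided, Benjamini-Hochberg adjustment over all 17300 tested genes, threshold 0.05). CPM values use TMM-scaled library sizes, and 3 counts correspond to 0.103 to 0.134 CPM. Standard errors and 95% intervals come from the F statistic and can be too narrow for large rises from few counts. With 1 wild-type library left out, the log2 fold changes of Ccdc81, Ccdc146 and Ccdc113 reached 6.89, 6.40 and 4.08. These lie above the upper limits of their intervals, 6.83, 6.29 and 3.86. The procedure was tested on simulated data. DESeq2 1.42.0 and limma 3.58.1 (voom) served as alternatives, beside other scalings, filters, a replicate term and leaving out each library.

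Named genes were the 10 largest called rises and 5 largest called falls without overlap between the groups and with a mean of at least 1 CPM, all members of the cilia, Ccdc85 and Ccdc88 lists, and the 5 uncalled genes with the highest FPKM; others are examples of their list. The genes, role lists, motile cilia reference and marker lists were chosen with earlier results of these data known. Promoters and gene positions come from RefSeq GRCm38.p6 and GENCODE M21 (GRCm38), matched by symbol or gene identifier; no position was carried over to mm39.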

Additional observations from a re-analysis of the deposited data

How the results depend on the processing

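The count of 26 Ccdc genes called higher ranged from 22 (DESeq2) to 31 (adjusted p under 0.1) over all alternatives, and the 14 larger rises from 13 to 15. DESeq2 called 22 higher and 7 lower, all of them among the edgeR calls. A minimum of 10 counts in every library removed Ccdc146. Leaving out each library in turn, tested with edgeR on the other 3 as a choice made after seeing the data and with the lone library assumed to vary like the other group, gave 22 to 29 higher and 3 to 12 lower. The lowest count of falls was without Foxn3KO replicate 2, and the cause was not tested. The median log2 fold change of the Ccdc genes was 0.0299 under total count scaling and ranged from 0.0528 to 0.0773 with a library left out. Genes beyond 2-fold without a test numbered 13 to 18, against 16. Over 17300 genes the replicate differences of the 2 groups correlated at -0.0083. With only 1 such difference per group, this cannot settle whether replicate numbers pair the samples. With the replicate block 28 Ccdc genes were higher and 8 lower, against 13.5% and 10.9% of all tested genes. Among the named genes, 360 results of the other settings kept their sign and their side of the threshold, though the values themselves could differ. Another 2 gained a call (Ccdc188), 1 lost it (Ccdc85a in DESeq2), and none changed sign. A library left out moved 21 of 164 fold changes beyond the spread between replicates. The 15 undecided genes had at most 12 to 216 counts in any library.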
